A study of Mus musculus with 13 samples.

Results

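The regions described here gained H3K27ac under LPS and kept it near the LPS level whether IL-10 was present throughout or only at the end. They were chosen by measured values, from the consensus regions under 20000 bp wide, on means of log2(deposited value + 1) over the 3 libraries of each group. A region qualified when LPS exceeded untreated by 2 or more, the lowest LPS library exceeded the highest untreated library, and both IL-10 groups lay between -1 and 1 of LPS. This gave 1176 of 40691 regions, or of the 38900 regions within the width limit, and they are called resistant below as a name for that choice. The same LPS criteria held in 5256 regions, of which 1291 were lower by 1 or more under both IL-10 schedules, 1867 were lower by 1 or more under continuous IL-10 alone, and 922 were of neither kind.

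Chromatin immunoprecipitation with sequencing gave the H3K27ac profiles of mouse macrophages, derived from bone marrow, of the IL10-/-RAG2-/- genotype and the 129S6/SvEvTac strain, grown with M-CSF. All groups shared that genotype, so no group made IL-10 of its own, and cells lacking Rag2 come from animals without mature T or B cells. The 4 groups, each of 3 libraries from independent macrophage pools, were LPS with continuous IL-10 (both at 1 ng/mL for 195 min), LPS with late IL-10 (195 min of LPS, IL-10 joining for the final 30 min), LPS alone for 195 min, and untreated cells. The age of the animals is not given, and the comparison asks which LPS-induced regions escape IL-10 and whether the length of exposure matters.

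LPS, a component of the outer membrane of Gram-negative bacteria, is sensed by Toll-like receptor 4, which activates NF-kB and AP-1 and, through interferon beta, the interferon response. At promoters and enhancers used by these factors, histone acetyltransferases place H3K27ac, a mark of active regulatory DNA. IL-10 signals through its receptor to STAT3 and restrains many, but not all, inflammatory genes of macrophages.

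Of the resistant regions, 87 (7.4%) held a start site listed in the RefSeq promoter table, against 69 (5.34%) of those lowered by both schedules, 177 (9.48%) of those lowered by continuous IL-10 alone and 8143 (20.9%) of all regions within the width limit. The promoters of 5 genes are printed because these genes span the roles met below and their starts lie inside resistant regions with high signal. They are RefSeq windows of GRCm38.p6, the same build as mm10, from 250 bases before to 50 bases after the start, read along the gene. Capitals mark the motifs found on either strand, with positions counted from the start site. Itgax, on the plus strand at chr7:128129300-128129599, held an AP-1 motif at -56. Clec4e, on the minus strand at chr6:123289822-123290121, held a C/EBP motif at -66. Sod2, on the plus strand at chr17:13007589-13007888, held a kB site at -83 and a GAS motif, the palindrome bound by STAT proteins, at -185. Nfkb2, on the plus strand at chr19:46304487-46304786, held 3 kB sites, of which a pair overlaps, the first at -39, and a GAS motif at -148. Ptgs2, on the plus strand at chr1:150099781-150100080, held a C/EBP motif at -69, and its window was added to the 6 that the rule for sequences gave. A motif is a match of letters, not a bound site.
Itgax: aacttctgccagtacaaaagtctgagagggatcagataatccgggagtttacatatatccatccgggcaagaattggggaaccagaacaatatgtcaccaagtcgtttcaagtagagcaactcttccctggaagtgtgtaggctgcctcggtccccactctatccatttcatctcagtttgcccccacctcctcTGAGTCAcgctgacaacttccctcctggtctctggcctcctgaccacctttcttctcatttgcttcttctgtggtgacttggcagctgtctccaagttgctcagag
Clec4e: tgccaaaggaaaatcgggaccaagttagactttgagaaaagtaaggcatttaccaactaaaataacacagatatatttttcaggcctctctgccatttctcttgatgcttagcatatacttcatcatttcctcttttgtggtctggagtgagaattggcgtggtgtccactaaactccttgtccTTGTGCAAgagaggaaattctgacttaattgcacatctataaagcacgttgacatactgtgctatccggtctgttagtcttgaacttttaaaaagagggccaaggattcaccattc
Sod2: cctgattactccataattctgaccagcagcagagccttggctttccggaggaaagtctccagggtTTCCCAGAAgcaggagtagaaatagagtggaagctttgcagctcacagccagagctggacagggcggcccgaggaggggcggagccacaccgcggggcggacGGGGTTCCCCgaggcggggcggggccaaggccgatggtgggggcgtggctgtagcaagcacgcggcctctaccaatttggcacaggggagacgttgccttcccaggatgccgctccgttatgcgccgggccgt
Nfkb2: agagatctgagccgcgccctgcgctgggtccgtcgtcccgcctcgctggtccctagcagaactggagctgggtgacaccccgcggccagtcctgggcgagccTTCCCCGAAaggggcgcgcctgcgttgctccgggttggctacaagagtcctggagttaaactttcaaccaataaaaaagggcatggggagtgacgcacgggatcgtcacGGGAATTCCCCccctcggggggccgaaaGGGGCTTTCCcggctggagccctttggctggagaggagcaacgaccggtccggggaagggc
Ptgs2: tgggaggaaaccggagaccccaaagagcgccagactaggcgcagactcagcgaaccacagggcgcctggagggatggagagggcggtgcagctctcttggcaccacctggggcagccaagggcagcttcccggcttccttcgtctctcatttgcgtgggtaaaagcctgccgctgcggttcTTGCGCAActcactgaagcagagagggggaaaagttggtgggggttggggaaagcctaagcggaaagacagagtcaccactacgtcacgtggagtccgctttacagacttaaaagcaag

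Seen over all promoter windows covered by resistant regions, kB sites were found in 12 of 108 windows (11.1%). The share was 5% of 60 windows in regions lowered by both schedules, 6.91% of 217 windows in regions lowered by continuous IL-10 alone and 4.81% of all 21263 windows. The ISRE motif (GAAA, any pair of bases, then GAAA), which interferon-activated factors bind, was in 1 window of resistant regions (0.926%) and in 1 of the regions lowered by both schedules (1.67%), against 47 windows (21.7%) of the regions lowered by continuous IL-10 alone and 3.35% of all windows. The GAS motif, TTCNNNGAA, was in 8.33% of windows in resistant regions, against 8.33% in regions lowered by both schedules, 12% in regions lowered by continuous IL-10 alone and 7.69% of all windows. AP-1 (TGANTCA) was in 7.41%, CRE (TGACGTCA) in 4.63%, C/EBP (TTGCNNAA) in 12% and PU.1 (GAGGAAGT) in 0.926% of windows in resistant regions, against 6.99%, 2.23%, 10.2% and 3.13% of all windows. No test was made of these differences, and windows of one gene can overlap. Zfp800 and Fam241a, whose windows also fell under the naming rule, held none of the 7 motifs there.

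Resistant regions also covered 8 miRNA hairpins in 6 regions, against 5 hairpins in 3 regions lowered by both schedules and 5 in 5 regions lowered by continuous IL-10 alone. These sets hold 1176, 1291 and 1867 regions, with median widths of 4814, 2628 and 3729 bp. Wider regions cover more sequence, and the counts were not tested. The mature sequences printed are the 5p arms of the let-7 and miR-99, miR-125 hairpins and the 3p arms named miR-148b and miR-210, from RefSeq on GRCm38.p6. Seeds, bases 2 to 8, are in capitals. The let-7c and let-7e arms share the seed GAGGUAG, while each of the other arms has its own.
mmu-let-7e-5p: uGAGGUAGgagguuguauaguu
mmu-let-7c-5p: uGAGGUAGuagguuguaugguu
mmu-miR-125a-5p: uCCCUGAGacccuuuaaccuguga
mmu-miR-99a-5p: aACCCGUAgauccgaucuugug
mmu-miR-148b-3p: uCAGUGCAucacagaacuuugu
mmu-miR-210-3p: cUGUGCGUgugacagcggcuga

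The deposited values are whole reads times 1 factor per library, with none under 1 read, and the libraries held 5149730 to 26922552 such reads. Between 578 and 736 of the 1176 resistant regions lay at 1 read in an untreated library, against 0 to 47 in an LPS library. Whether reads were subtracted before that floor is not stated, so a region at 1 read is not shown to lack H3K27ac, and folds against the floor of 3 reads describe the deposited values alone. Macrophage markers summed to between 40879 and 46299 with continuous IL-10, 31374 and 38908 with late IL-10, 35722 and 51330 with LPS and 36947 and 52565 untreated, and none of their 14 regions was resistant. T cell markers summed to between 425 and 580 with continuous IL-10, 965 and 1430 with late IL-10, 850 and 1007 with LPS and 444 and 624 untreated. The 1 resistant region of this list overlaps both Cd247, which encodes a T cell receptor chain, and Pou2f1, and Cd3g and Cd8a had no region. Dendritic cell markers summed to between 5122 and 10189 with continuous IL-10, 7172 and 21375 with late IL-10, 7300 and 23370 with LPS and 5943 and 7237 untreated. Erythroid and mast cell markers summed to between 103 and 208 with continuous IL-10, 100 and 262 with late IL-10, 155 and 242 with LPS and 57.8 and 70 untreated. B cell sums were 1806 to 2561 with continuous IL-10, 2016 to 3067 with late IL-10, 1552 to 2046 with LPS and 2509 to 3246 untreated. Neutrophil sums were 2954 to 3372 with continuous IL-10, 2683 to 2958 with late IL-10, 1836 to 2141 with LPS and 2292 to 3246 untreated. Fibroblast sums were 8477 to 17789 with continuous IL-10, 7078 to 16466 with late IL-10, 6095 to 13775 with LPS and 7251 to 9770 untreated. Apart from the T cell list, no list of markers of other cells held a resistant region, and a part of other cells in these results was not tested. In a bulk profile, a change in the cells present and a change per cell cannot be told apart.

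Among the resistant regions, the median difference was 3.65 (quartiles 2.61 and 5.17) for LPS minus untreated, -0.27 (-0.66 and 0.17) for continuous IL-10 minus LPS and -0.14 (-0.55 and 0.27) for late IL-10 minus LPS, all in log2 units and all bounded by the choice. The difference from LPS was below 0 in 777 regions (66.1%) with continuous IL-10 and in 688 (58.5%) with late IL-10, against 47.5% and 54.7% of all regions within the width limit. The choice asked for high LPS values and bounded these differences, and all regions were not chosen so. These shares therefore describe the choice and show no effect of IL-10. Resistant regions had a median width of 4814 bp, against 2628 bp for regions lowered by both schedules, 3729 bp for those lowered by continuous IL-10 alone and 2916 bp for all regions within the limit. Their median LPS signal per kb was 25.5, against 23.2, 35.1 and 14.3 in those sets. All 3 untreated libraries lay at or under 3 reads in 499 resistant regions (42.4%), in 820 (63.5%) of the regions lowered by both schedules and in 966 (51.7%) of those lowered by continuous IL-10 alone.

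**Figure D1:**
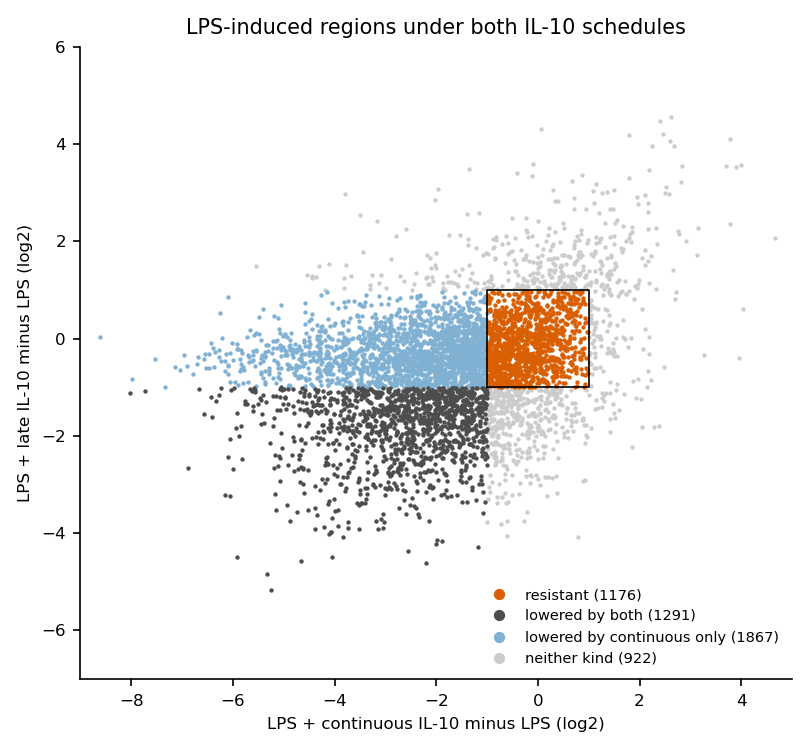
Each point is 1 of the 5256 LPS-induced regions under 20000 bp, placed by its mean log2 difference from LPS with continuous IL-10 (x axis) and late IL-10 (y axis). The box from -1 to 1 on both axes holds the 1176 resistant regions and is the choice itself, and points run on across its edges without a gap.

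The box has no natural edge. Within 0.1 of the lower limit for continuous IL-10, 98 regions lay inside and 82 outside, and the nearest were Tmtc2 at -0.9965 inside and Zc3h14 at -1.0006 outside. At the upper limit for late IL-10, Edn1, the gene of the vasoconstrictor endothelin 1, was left out at 1.0050. At the LPS limit of 2, Zfp800 was in at 2.0010 and Camk1d out at 1.9980, with 62 regions within 0.1 on either side.

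The third libraries stood apart in these regions. The median log2 value of resistant regions was 6.94, 6.92 and 6.11 with continuous IL-10 in replicates 1, 2 and 3, 6.92, 6.96 and 6.15 with late IL-10, 7.18, 7.19 and 5.89 with LPS, and 1.27, 1.18 and 0.50 in untreated cells. Replicate 3 was the lowest of each group, and most so with LPS. In untreated replicates 1, 2 and 3 the median was 2, 1 and 1 reads. The order of untreated replicates 2 and 3 is thus that of their factors. Within replicate numbers 1, 2 and 3, the median of continuous IL-10 minus LPS was -0.28, -0.46 and 0.08, and that of late IL-10 minus LPS was -0.16, -0.26 and 0.17. Both schedules lay within 1 of LPS in each of the 3 numbers in 289 of the 1176 regions (24.6%). Without LPS replicate 3 the medians were -0.62 for continuous and -0.51 for late IL-10, and 1154 regions met the choice, of which 646 were among the 1176. Without LPS replicate 1 or 2 the continuous median was -0.09 or -0.06 and the late median 0.02 or 0.08. Without continuous IL-10 replicate 3 the continuous median was -0.01, and without late IL-10 replicate 3 the late median was 0.10.

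Since all 12 libraries took part in the choice, the same choice was made on 2 replicate numbers and read in the libraries of the number left out. It took 1315, 1319 and 1362 regions with numbers 1, 2 and 3 left out. In the unused libraries, LPS exceeded untreated by 2 or more in 78.5%, 78.7% and 58.5% of them. Continuous IL-10 lay within 1 of LPS in 61.1%, 55.8% and 64.2%, and late IL-10 in 67%, 73.3% and 65.1%. Over all regions within the width limit these shares were 51.7%, 53.3% and 59.9% for continuous and 61.8%, 64.9% and 63.6% for late IL-10. Each IL-10 criterion, taken alone, was thus met by most of all regions. Among all LPS-induced regions the shares were 33.8%, 32.2% and 49.2% for continuous and 56.8%, 55.8% and 58.4% for late IL-10. All criteria were met by 36.3%, 35.4% and 29.6%, against 3.68%, 4.07% and 8.8% of regions chosen in the same way as lowered by both schedules and 15.8%, 13.8% and 13.8% of all LPS-induced regions. The median of continuous IL-10 minus LPS in the unused libraries was -0.43, -0.59 and 0.30 for the resistant choice, against -2.75, -2.24 and -0.92 for the choice lowered by both. For late IL-10 it was -0.31, -0.25 and 0.37, against -1.26, -1.32 and -0.45. In each of the 3 readings the resistant choice lay nearer to LPS than the lowered one, while most single regions missed at least 1 criterion.

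**Figure D2:**
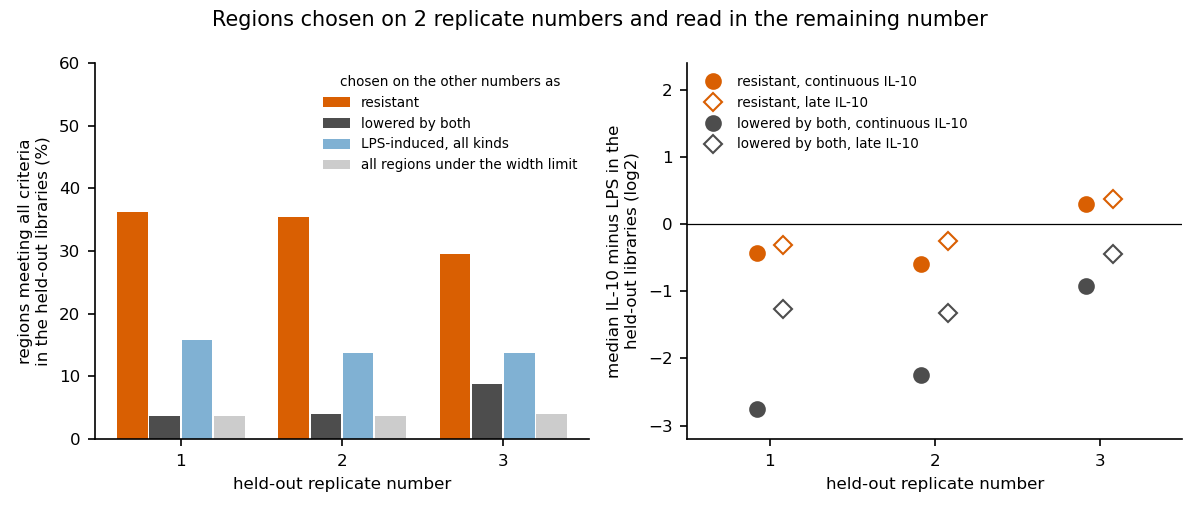
The left panel gives the percentage of regions that met all criteria in the libraries of the replicate number left out, by the set they were chosen for on the other numbers, and the right panel gives the median log2 difference from LPS in those libraries for continuous (filled) and late (open) IL-10. The resistant choice reached 36.3%, 35.4% and 29.6%, and its medians lay above those of regions chosen as lowered by both schedules.

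Of the 1176 regions, 1165 passed the filter on low values and entered limma's fit over 36621 regions, and the other 11 were too weak. At a Benjamini-Hochberg adjusted p under 0.05 in limma, 1005 of them were higher with LPS than untreated and 0 were lower (16.5% of all regions tested were higher), a contrast that the choice itself used. Their median fitted difference was 3.67, against -0.06 over all regions tested. The choice also bounded the IL-10 differences from LPS. Low counts in the comparisons that follow were thus built into it and describe the choice. Between continuous IL-10 and LPS 1 of the 1165 was called by limma, lower with IL-10 (6.52% of all regions were called), with 9 at an unadjusted p under 0.05 and medians of -0.27 in these and 0.02 in all regions. Between late IL-10 and LPS limma called 0 (3.53% of all regions), with 7 at an unadjusted p under 0.05, 0 by edgeR, and medians of -0.13 in these and -0.12 in all regions. Between late and continuous IL-10 limma called 1, higher with late IL-10 (2.71% of all regions), with 27 at an unadjusted p under 0.05 and medians of 0.11 in these and -0.02 in all regions. With the replicate number as a block, limma called 15 lower with continuous IL-10 than with LPS, 1 lower with late IL-10 than with LPS, and 22 higher and 4 lower with late than with continuous IL-10. In that fit 16.4%, 8.09% and 13% of all regions were called in these comparisons.

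The low counts, built into the choice, do not show equal signal. The 95% interval of the difference from LPS lay within -1 to 1 in 15 of 1165 regions (1.29%) with continuous IL-10 and in 21 (1.8%) with late IL-10. The median distance from estimate to bound was 1.85, and the interval reached below -1 in 1073 regions (92.1%) with continuous and 1034 (88.8%) with late IL-10. With the replicate number as a block the median distance was 1.5, the interval lay within -1 to 1 in 58 regions (4.98%) with continuous and 81 (6.95%) with late IL-10, and it reached below -1 in 959 (82.3%) and 889 (76.3%). In either fit, most single resistant regions had a mean near LPS with a loss of more than 1 inside the interval.

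Among the 20 resistant regions with the highest LPS signal over a gene, Itgax, Clec4e, Sod2 and Snd1 led. Sod2 encodes the mitochondrial superoxide dismutase, and the region at chr17:13002080-13016867 covers its start. It held 4428, 4464 and 3405 with continuous IL-10, 3691, 3906 and 3448 with late IL-10, 3321, 4386 and 2736 with LPS, and 234, 188 and 468 untreated. The 9 stimulated libraries overlapped each other and stood clear of the untreated ones. Sod2 differed from LPS by 0.25 (95% interval -0.43 to 0.94) with continuous and 0.11 (-0.58 to 0.79) with late IL-10, and so was among the few regions with both intervals within 1.

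Clec4e encodes Mincle, a C-type lectin receptor for mycobacterial glycolipids. Its region at chr6:123280930-123298953 held 2833, 3328 and 1323 with continuous IL-10, 3149, 5164 and 1599 with late IL-10, 3929, 5514 and 1083 with LPS, and 371, 840 and 175 untreated. Replicate 3 was lowest in every group. Within replicate 3, both IL-10 libraries exceeded the LPS library, and in replicates 1 and 2 the LPS library was the highest.

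Itgax encodes CD11c, an integrin chain of dendritic cells and macrophages. At chr7:128126324-128144345 it held 2497, 2364 and 1523 with continuous IL-10, 2937, 4257 and 1858 with late IL-10, 4047, 6374 and 2336 with LPS, and 395, 567 and 445 untreated. LPS was the highest in each replicate number and continuous IL-10 the lowest of the 3 stimulated groups. The difference from LPS was -0.91 (95% interval -1.75 to -0.08) with continuous and -0.46 (-1.29 to 0.37) with late IL-10, which puts Itgax close to the limit of the choice.

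**Figure D3:**
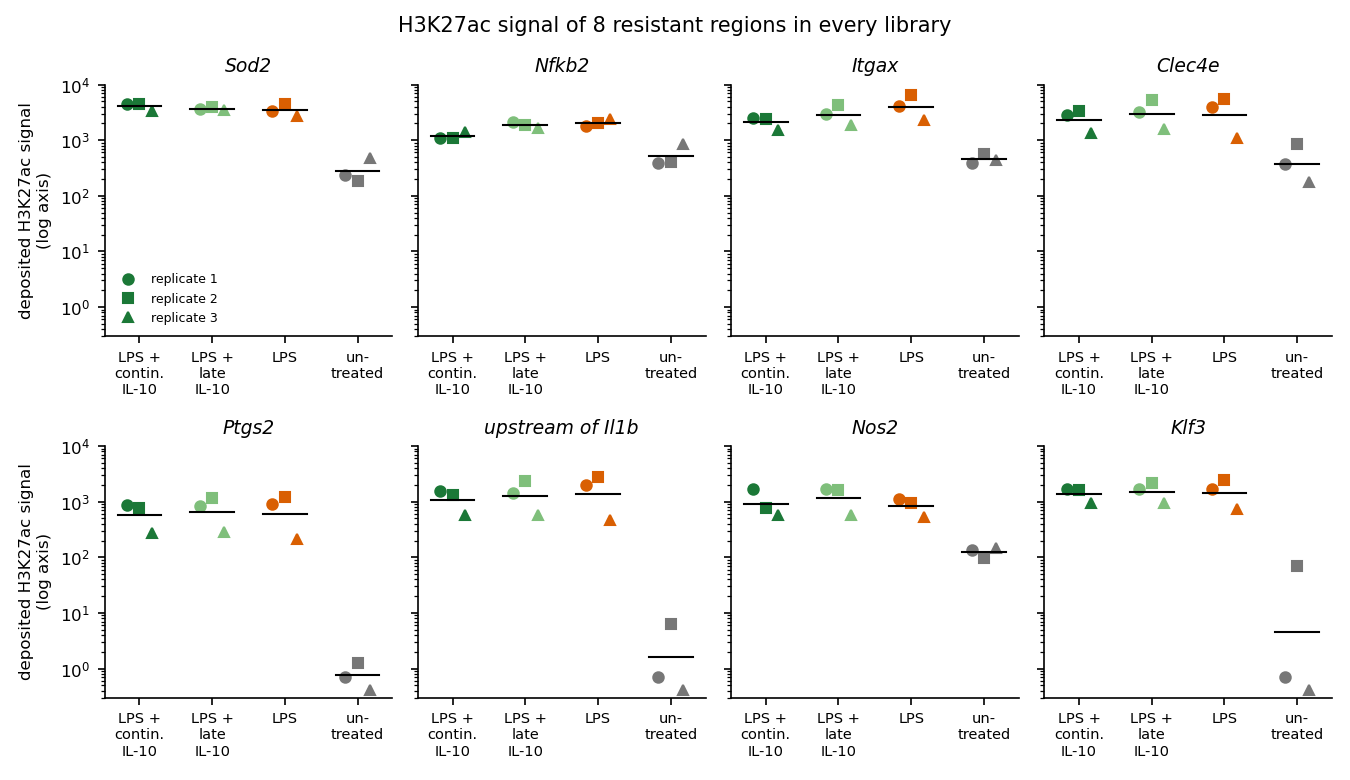
Deposited H3K27ac signal (log axis) of 8 resistant regions in every library, with 1 marker shape per replicate number and a line at the mean of log2(value + 1) turned back to the signal scale. In each panel the LPS and IL-10 libraries stand above the untreated ones, and at Ptgs2 the untreated libraries lie at 0.707, 1.26 and 0.419, which is 1 read in each.

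Among inflammatory effectors, Ptgs2 encodes the inducible cyclooxygenase of prostaglandin synthesis and had 4 resistant regions of the 10 assigned to it. The region over its start, at chr1:150095219-150106183, held 858, 782 and 274 with continuous IL-10, 824, 1174 and 285 with late IL-10, 891, 1207 and 212 with LPS, and 0.707, 1.26 and 0.419 untreated. Every untreated library lay at 1 read, and the LPS value was at least 323-fold higher than the floor of 3 reads. Differences from LPS were -0.10 with continuous and 0.09 with late IL-10. Past the gene end, the region at chr1:150141887-150156539 differed from LPS by 0.83 with continuous and 0.96 with late IL-10, and its neighbour at chr1:150156632-150168892 by 0.74 and 0.49. None of the 10 regions assigned to Ptgs2 was lowered by IL-10 as defined above. A weak region at -54.4 kb, which missed the LPS criteria, differed from LPS by -1.16 with continuous and 0.34 with late IL-10.

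**Figure D4:**
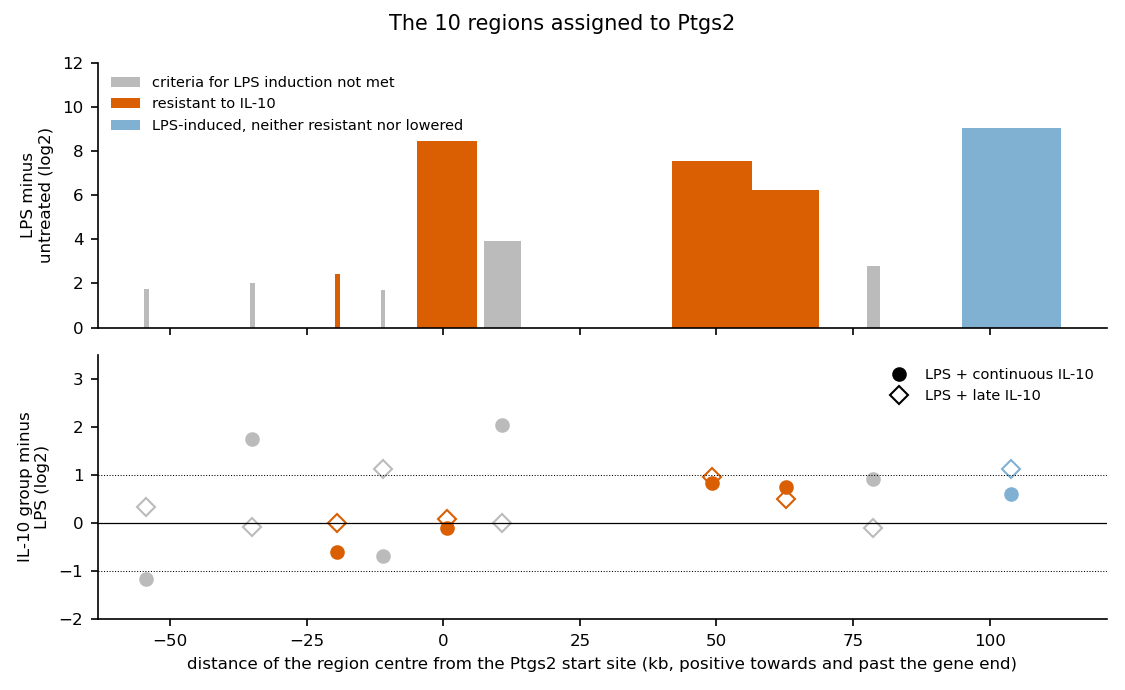
The 10 regions assigned to Ptgs2, by the distance of their centre from its start site in kb. Upper bars give LPS minus untreated (log2) over the width of each region, and lower symbols give continuous (filled) and late (open) IL-10 minus LPS. The 4 resistant regions lie between the dotted lines at -1 and 1, and the region at 104 kb has a late IL-10 difference of 1.11.

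Nos2, the inducible nitric oxide synthase, had a resistant region at chr11:78908569-78925514 within the gene. It held 1705, 758 and 566 with continuous IL-10, 1722, 1621 and 568 with late IL-10, 1102, 955 and 526 with LPS, and 133, 97.1 and 144 untreated. Late IL-10 gave the highest value in each replicate number, by little over continuous IL-10 in replicates 1 and 3. Late minus continuous IL-10 was 0.37 (95% interval -0.71 to 1.46). Another region within Nos2, at chr11:78945275-78956828, missed the LPS criteria, with 3.94, 1.68 and 0.464 under LPS. It lay above LPS by 6.45 with continuous and 7.52 with late IL-10 (limma adjusted p = 0.000802 and 0.000219). Slc7a2, an arginine transporter that feeds the nitric oxide pathway, held 1951, 1321 and 554 with continuous IL-10, 2659, 2453 and 542 with late IL-10, 3477, 3322 and 767 with LPS, and 82, 8.82 and 36.4 untreated at chr8:40847152-40866844. Here LPS was the highest in each number, with a difference of -0.88 (95% interval -2.70 to 0.95) for continuous IL-10.

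Of the listed cytokine and chemokine genes, 2 of 32 (6.25%) had a resistant region, Il1b and Csf3, against 5.51% of all protein-coding genes, and in 14 of the 32 every region exceeded the width limit. Il1b encodes interleukin 1 beta, and its resistant region at chr2:129397996-129415771 begins 26832 bp upstream of the gene. It held 1534, 1291 and 586 with continuous IL-10, 1425, 2333 and 582 with late IL-10, 1958, 2806 and 475 with LPS, and 0.707, 6.30 and 0.419 untreated. LPS minus untreated was 9.05, the largest of all resistant regions beside Fam98b at the same value. The region over the Il1b gene itself was too wide for the choice, and differed from LPS by -0.63 with continuous and 0.23 with late IL-10. Csf3, the gene of granulocyte colony-stimulating factor, had a weak region at 62.4, 69.9 and 18.7 with continuous IL-10, 150, 115 and 21.3 with late IL-10, 64.9, 63.9 and 26 with LPS, and 2.83, 1.26 and 0.419 untreated.

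The NF-kB list, which also holds feedback genes, had a resistant region at 5 of 34 genes (14.7%), against 5.51% of all protein-coding genes. Regions lowered as defined above lay at 7 of the 34 (20.6%), against 14.3% of all. In 5 of the 34 every region exceeded the width limit. Nfkb2 encodes p100, the precursor of the p52 subunit. At chr19:46301881-46310652 it held 1109, 1097 and 1377 with continuous IL-10, 2159, 1890 and 1619 with late IL-10, 1794, 2047 and 2429 with LPS, and 395, 403 and 845 untreated. The continuous IL-10 libraries lay below all LPS and late IL-10 libraries, and the difference from LPS was -0.80 (95% interval -1.47 to -0.14), against -0.14 (-0.81 to 0.52) for late IL-10. Nfkbie, an inhibitor of NF-kB, held 691, 676 and 676 with continuous IL-10, 694, 917 and 697 with late IL-10, 944, 1444 and 1406 with LPS, and 136, 94.5 and 340 untreated. Both IL-10 groups of Nfkbie lay below every LPS library, so the name resistant describes the size of its difference and not an absence of one.

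Birc3 encodes the ubiquitin ligase cIAP2, which restrains cell death downstream of TNF receptors. Its resistant region at chr9:7886457-7900219, 13252 bp from the gene, held 917, 777 and 542 with continuous IL-10, 595, 724 and 500 with late IL-10, 763, 595 and 505 with LPS, and 17, 1.26 and 0.419 untreated. Within the gene, the Birc3 region at chr9:7861460-7865514 was lowered by continuous IL-10 alone, by -3.07 against -0.09 with late IL-10. Resistant and lowered regions thus lay side by side at Birc3. Tank, an adaptor of NF-kB and interferon signalling, had a resistant region over its start and another 29205 bp away, and Zc3h12a, a ribonuclease that degrades cytokine mRNA, had a weak one.

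Several regions were at the LPS level in the mean of both schedules. Spaca6 and Has1, the gene of a hyaluronan synthase, share the region at chr17:17834364-17852176. It held 1605, 1541 and 1210 with continuous IL-10, 1583, 1584 and 1182 with late IL-10, 1753, 1764 and 1049 with LPS, and 241, 271 and 335 untreated. Differences from LPS were -0.04 under both schedules (95% intervals -0.67 to 0.59 and -0.67 to 0.58). Klf3, a transcriptional repressor gene, held 1701, 1589 and 964 with continuous IL-10, 1654, 2163 and 957 with late IL-10, 1655, 2430 and 738 with LPS, and 0.707, 70.6 and 0.419 untreated at chr5:64823778-64842816. One untreated library of Klf3 lay far above the other two. Larp4b, Mfsd14b, Ndufb3, Htt, Crocc2, Tent4b, Plekha5 and Lrmda completed the 10 nearest to LPS, each within 0.07 of it in both schedules. These 10 were taken from resistant regions with a mean LPS signal at or above their median. Some had wide 95% intervals for continuous IL-10 minus LPS, -1.96 to 2.06 at Plekha5 and -2.46 to 2.34 at Klf3.

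The let-7 hairpins described are those found within resistant regions, so their response is the choice itself. The Spaca6 region that holds let-7e and miR-125a, at chr17:17824677-17833272, held 936, 1331 and 1125 with continuous IL-10, 1085, 767 and 1222 with late IL-10, 1377, 1341 and 1298 with LPS, and 107, 98.3 and 288 untreated. The region that holds let-7c and miR-99a, at chr16:77595075-77607893 with no protein-coding gene within 100 kb, held 1204, 929 and 813 with continuous IL-10, 1196, 1641 and 864 with late IL-10, 846, 1195 and 394 with LPS, and 136, 285 and 2.09 untreated. The region with let-7c lay above LPS by 0.40 with continuous and 0.70 with late IL-10. The Copz1 region with miR-148b had an LPS difference of 3.09 and IL-10 differences of -0.67 and -0.59 with continuous and late IL-10. The Rassf7 region with miR-210, a miRNA induced by hypoxia, had 2.05, with 0.17 and -0.11. The remaining hairpins lay in resistant regions at Pdlim7 and Foxp1.

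The 10 largest LPS differences ran from 8.44 to 9.05, and outside Il1b and Ptgs2 they lay at or near Fam98b, Stk31, Ets2, Mycbp2, Clrn3, Spp1, Dennd1a and Spcs3. Ets2, an ETS family transcription factor gene, has its resistant region at chr16:95736063-95754417, 15014 bp away. It held 422, 597 and 425 with continuous IL-10, 460, 455 and 438 with late IL-10, 880, 946 and 562 with LPS, and 1 read in each untreated library, at least 334-fold below LPS. At Ets2 the late IL-10 libraries lay below every LPS library, and 1 continuous IL-10 library lay above the lowest of them. Spp1, which encodes osteopontin, had 3 resistant regions of 5, and the strongest held 535, 629 and 353 with continuous IL-10, 375, 529 and 261 with late IL-10, 820, 951 and 371 with LPS, and 1 read untreated, at least 299-fold below LPS.

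Several genes carried many resistant regions. Enox2 had 7 of its 10 regions among them, Macrod2 6 of 18, Snd1 6 of 23, Pcdh7 5 of 19 and Spcs3 5 of 7, while all 3 regions of Cmtr1, an mRNA cap methyltransferase, were resistant. Wide genes offer more regions, so these counts are no rate per length. The Enox2 series at chrX:49174770-49220078 was the longest run, with 6 neighbours no more than 50 kb apart, and its LPS differences ranged from 2.42 to 6.87. Nampt, which encodes the enzyme that regenerates NAD from nicotinamide, had 4 resistant regions upstream of its start, spread over chr12:32742916-32799554. The strongest of the Nampt regions held 852, 547 and 332 with continuous IL-10, 1016, 923 and 404 with late IL-10, 978, 1042 and 256 with LPS, and 114, 58 and 71.2 untreated. Acsl1, a long-chain fatty acid activating enzyme, had 3 resistant regions of 11 and none lowered as defined above. That definition has no class for regions lower under late IL-10 alone. The 2 LPS-induced Acsl1 regions of neither kind differed from LPS by -1.32 and -1.06 with late IL-10. With continuous IL-10 they differed by 0.73 and 0.05. In the 3 resistant ones the late IL-10 difference ran from -0.78 to -0.50. In Snd1, 6 resistant regions shared the gene with 3 lowered by both schedules and 1 lowered by continuous IL-10 alone.

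Some resistant regions adjoined one another. The next region on either side of a resistant one was counted when within 50 kb, so that a region can count more than once. Of these 1975 neighbours 12.6% were resistant themselves. The resistant share was 4.37% beside regions lowered by both schedules and 4.01% beside those lowered by continuous IL-10 alone. Beside all regions within the width limit it was 2.88%. Regions lowered by both schedules had 16.1% of neighbours of their own kind, against 3.19% beside all regions. For regions lowered by continuous IL-10 alone these shares were 12.6% and 4.47%. In all, 224 resistant regions (19%) adjoined another directly and formed 100 runs, 17 of them of 3 or more. Neighbouring regions of a locus are not independent of each other, and no test was made of these shares. By chromosome, the resistant share of regions ran from 2.01% on chromosomes 4 and 19 to 4.78% on 16 and 5.02% on X.

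By gene, 825 of 14979 protein-coding genes (5.51%) had a resistant region, 2140 (14.3%) had a region lowered by IL-10 (under both schedules or under continuous IL-10 alone), and 270 genes had both kinds, which is 32.7% of those with a resistant region. The gene lists were chosen with earlier results of these data known, and their counts are descriptions. A gene whose every region exceeded the width limit could have neither a resistant nor a lowered region. Such were 14 cytokine and chemokine, 15 effector, 5 NF-kB and 4 interferon response genes. So were 10 IL-10 and STAT3 targets, 11 macrophage identity genes and 1 to 4 genes in each other list. Inflammatory effectors had resistant regions at 9 of 45 genes and lowered ones at 10, among them Ptgs2, Nos2, Clec4e, Slc7a2, Cd38, Cd69, F10, Slc7a11 and Slpi with resistant regions. Of their 124 regions tested, limma called 57 higher and 2 lower with LPS than untreated, and 3 higher and 7 lower with continuous IL-10 than with LPS. The effectors' shares were 46% higher and 1.61% lower with LPS, against 16.5% and 17.9% of all regions, and 2.42% higher and 5.65% lower with continuous IL-10, against 3.28% and 3.24% of all regions. The NF-kB list had resistant regions at 5 of 34 genes and lowered ones at 7. Cytokines and chemokines had them at 2 and 9 of 32 genes, and the median difference over their 67 regions tested was -2.50 for continuous IL-10 minus LPS, against 0.02 over all regions.

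Interferon response genes had a resistant region at 0 of 49 genes and a lowered one at 33, of which 28 had a region lowered by continuous IL-10 alone and 8 a region lowered by both, so that some had both. Of their 99 regions tested, limma called 59 higher and 10 lower with LPS than untreated, and 3 higher and 21 lower (21.2%, against 3.24% of all regions) with continuous IL-10 than with LPS. Rtp4, an interferon-induced gene outside the list, did have a resistant region, at -0.99 with continuous and 0.13 with late IL-10, just inside the limit. Immediate early genes had resistant regions at 0 of 26 genes and lowered ones at 3, and limma called 11 of their 71 tested regions higher (15.5%, near the 16.5% of all regions) and 7 lower (9.86%) with LPS. IL-10 and STAT3 targets had 1 of 25, Pim1, with lowered regions at 3, and in 10 of the 25 every region exceeded the width limit.

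Cell traffic genes had resistant regions at 4 of 26 genes and lowered ones at 8. Fscn1, which encodes an actin-bundling protein of mature dendritic cells, held 169, 184 and 146 with continuous IL-10, 428, 455 and 322 with late IL-10, 323, 449 and 235 with LPS, and 1 read untreated. The continuous IL-10 libraries of Fscn1 lay below the others at -0.97, against 0.29 with late IL-10. Phosphatases and TLR feedback genes had resistant regions at 3 of 26 genes (Dusp4, Dusp5 and Trib1) and lowered ones at 9. Glycolysis and itaconate genes had them at 2 of 21 (Hif1a and Slc2a1) and 5, macrophage identity genes at 4 of 32 (Cd36, Abca1, Lpl and Mitf) and 4, and housekeeping genes at 1 of 18, Ywhaz, and 1. Hif1a, the oxygen-sensing transcription factor gene, held 62.4, 47 and 71.9 with continuous IL-10, 248, 269 and 82.4 with late IL-10, 167, 254 and 35.2 with LPS, and 1 read untreated at its region 56412 bp away. Late IL-10 was the highest group at Hif1a in each replicate number.

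**Figure D5:**
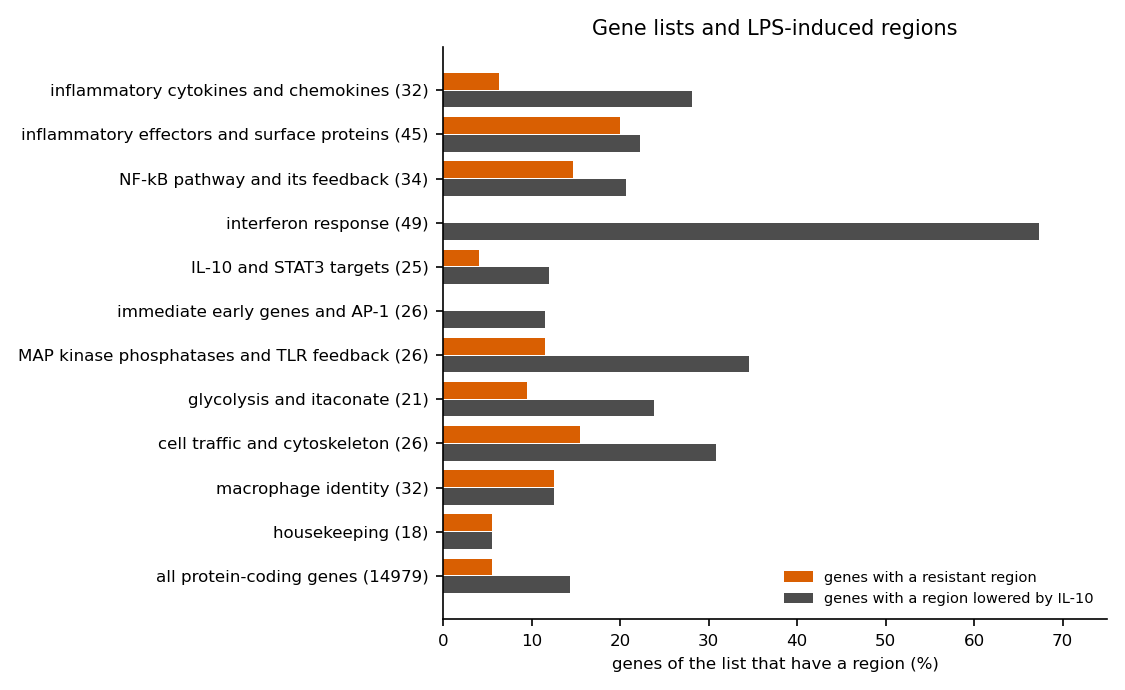
For each gene list, the percentage of its genes with a region that had a resistant region (upper bar) and a region lowered by IL-10 under both schedules or under continuous IL-10 alone (lower bar), with the number of genes with a region in brackets. Interferon response genes reached 0% and 67.3%, inflammatory effectors 20% and 22.2%, and all protein-coding genes 5.51% and 14.3%. Genes whose every region exceeded the width limit count in the brackets but could reach neither bar.

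The member that limma called between IL-10 groups overlaps Naa25, which encodes a subunit of an N-terminal acetyltransferase, at chr5:121396190-121404526. It held 1194, 847 and 944 with continuous IL-10, 2319, 1974 and 1887 with late IL-10, 1985, 2114 and 1639 with LPS, and 476, 382 and 584 untreated. The continuous IL-10 libraries lay below all late IL-10 and LPS libraries and above the untreated ones. The difference from LPS was -0.95 (SE 0.26, limma adjusted p = 0.0456) with continuous and 0.11 (limma adjusted p = 0.993) with late IL-10. Its call against LPS was lost without the filter (adjusted p = 0.0514) and with median centring (0.108) in limma, and kept in edgeR (0.0379) and with the block (0.00981). No resistant region was called between continuous IL-10 and LPS without the filter, with median centring or in 10 of the 12 fits without 1 library.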

How the data were processed

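H3K27ac ChIP-seq was analysed in 12 libraries, 3 each of 4 groups. The authors deposited 1 table of scaled signal per library for 40691 consensus regions of mm10. Trim Galore, Bowtie2, MACS2 and DiffBind were used, per the submitters' processing notes, without stated roles or versions. In each library 100% of the deposited signal values were whole multiples of the smallest value within 0.0001 reads, and the reads recovered this way were 5149730 to 26922552 per library. The input library was not used here.

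The members were chosen by the stated criteria in the values, and members and gene lists were chosen with earlier results of these data known. limma 3.58.1 in R 4.3.3, with trended and robust variance moderation, was fitted on log2(signal + 1) of all 12 libraries with group as the term, over 36621 regions with a mean above the 10th percentile, and called at a Benjamini-Hochberg adjusted p under 0.05. Such differences understate those of weak regions. The design named limma for scaled values, and the count test, edgeR 4.0.16 with TMM on the recovered reads, was an alternative, as were a replicate block, a pseudocount of 8, no filter, median centring and leaving out each library.

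Same-numbered libraries of the compared groups deviated together (correlations of 0.145 to 0.699 in 12 pairs, 11 of 12 libraries closest to their own number). The numbers, from the 3 pools named in the labels, were therefore taken to pair the libraries in the block fit and in readings within numbers. The main fit left this pairing out. Single-region intervals and p-values come from the main fit unless another fit is named. Regions were assigned to every protein-coding gene they overlap or else the nearest within 100 kb, in the RefSeq table of GRCm38.p6. Named were the 20 highest LPS signals over a gene, the 10 largest LPS differences, and the 10 nearest to LPS under both schedules. The last were taken from resistant regions with a mean LPS signal at or above their median. Also named were genes with 3 or more resistant regions, up to 6 genes per list, and regions nearest each limit. Where all untreated libraries held at most 3 reads, the fold was set against 3 reads per library. With 3 libraries per group an exact permutation test reaches no p below 0.1, and none was used.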

Additional observations from a re-analysis of the deposited data

Results flagged for a closer look

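The region overlapping Naa25 differed between the IL-10 schedules, with 2319, 1974 and 1887 under late IL-10 against 1194, 847 and 944 under continuous IL-10. Late minus continuous IL-10 was 1.06 on the log2 scale (SE 0.26, limma adjusted p = 0.0487), higher in 3 of 3 replicate numbers, and this was the test of the difference itself. The call was lost without the filter on low values (limma adjusted p = 0.0526), with median centring (0.102) and in 9 of 12 limma fits without 1 library (the highest adjusted p was 0.214, without late IL-10 replicate 1), and kept in edgeR (0.0488), with a pseudocount of 8 (0.0437) and with the replicate block (0.0075). The cause was not tested.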

How the results depend on the processing

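The choice gave 1176 regions, 355 with an IL-10 window of 0.5 and 763 with an LPS limit of 3. With a pseudocount of 8 it gave 928, of which 805 were shared, without a width limit 1341, and with median centring 1504, of which 1146 were shared. Leaving out 1 library gave 1048 to 1371. The 1005 calls of LPS against untreated stayed between 832 and 1021 without 1 library. They came to 1121 with the replicate block, 915 with a pseudocount of 8, 1002 without the filter, 1057 with centring and 1044 by edgeR. Of all regions tested, 16.5% were called higher in the main fit and 12% to 22.3% without 1 library. This share was 24.1% with the block, 16% with a pseudocount of 8, 15.1% without the filter, 19.1% with centring and 19.6% by edgeR. The choice bounded the IL-10 contrasts, so the counts of members that follow describe it. Between continuous IL-10 and LPS limma called 1 region, 15 with the replicate block, 0 without the filter and 0 with centring. The shares of all regions called were 6.52%, 16.4%, 5.62% and 6.56%. Without 1 library limma called 0 to 7, with 2.87% to 12.3% of all regions called. The 7 came without LPS replicate 3, where 12.3% of all regions were called. Between late IL-10 and LPS limma called 0, 1 with the replicate block and 0 without any 1 library. Of all regions, 3.53%, 8.09% and 1.68% to 3.83% were called in these fits. Between late and continuous IL-10 limma called 1, 26 with the replicate block, 2 with a pseudocount of 8, 0 without the filter and 0 with centring. The shares of all regions called were 2.71%, 13%, 3.47%, 2.27% and 2.69%. Without 1 library limma called 0 to 4, with 0.15% to 6.25% of all regions called. The share meeting all criteria in unused libraries averaged 33.8%, 41% with a pseudocount of 8 and 35% with centring. The cause of these shifts was not tested. The number of 3 libraries per group and, in untreated cells, values at 1 read limit the precision, and the lone or paired libraries left are taken to vary like the other groups.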
